A study of Mus musculus with 48 samples.

Results

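NudC-eluted RNA and input RNA of livers from 12-month C57BL/6 mice were compared gene by gene, in 2 pairs of libraries that share a replicate number. A gene entered when no more than 25% of these 4 libraries held a zero count, and 18033 of the 55335 gene identifiers in the count table passed. The 15838 genes without a zero had a median of 280 counts summed over the 4 libraries. The 2195 genes with a single zero, just inside the filter, had a median of 8 counts, and the 2526 genes with 2 zeros, just outside it, had a median of 4. The compared groups were NudC+ Input (n = 2) and NudC+ Enrich (n = 2), beside an arm without the enzyme, NudC- Input (n = 2) and NudC- Enrich (n = 2), from livers of the same age. All 8 libraries came from RNA that had passed through the biotinylation reaction, and an input was an aliquot set aside before capture on streptavidin. The series also held 16 libraries of 2-month and 18-month livers and 24 libraries of 18-month liver RNA with a spike-in, in each case inputs and NudC-eluted RNA in equal number. No source stated the sex of the mice or whether each library was made from a single liver.

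NAD-RNA is RNA whose 5′ end carries nicotinamide adenine dinucleotide in place of the usual m7G cap. NAD contains an adenosine, and RNA polymerase can use it as the first nucleotide where a transcript begins with A. In ONE-seq, the enzyme ADPRC exchanges the nicotinamide of the cap for HEEB, a molecule that carries biotin, and streptavidin beads then capture the tagged RNA. NudC is a bacterial hydrolase that cuts the diphosphate of the NAD cap and leaves the triphosphate bridge of an m7G cap intact. Per the study's methods, free biotin first displaced the bound RNA from the beads, and NudC was then added. Fresh streptavidin held back RNA that still carried biotin, and the RNA left in the supernatant was the eluted RNA. The arm without the enzyme had a mock treatment instead, and its Enrich libraries are also called eluted RNA below. The question of this comparison was which liver transcripts were more abundant in eluted RNA than in input.

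The NudC+ libraries held from 7381870 to 8589441 counts, with a median of 7815705. A floor of 3 counts lay between 0.349 and 0.406 cpm of these unscaled totals (covering counting error only), a scale other than that of the levels below. Levels are given below as cpm, counts divided by the size of the library, after scaling by TMM, edgeR's trimmed mean of M values. The TMM factors were 1.11 and 1.34 in input and 0.789 and 0.894 in eluted RNA, so that the scaling itself moved with the groups. Replicates 1 and 2 of the input lay 2-fold or more apart for 557 genes and 4-fold or more for 74, while the eluted-to-input ratios of the pairs did so for 347. All 10 hepatocyte markers were detected, at a summed 80500 to 83900 cpm in input and 83600 to 85800 cpm in eluted RNA. No count was listed for any of the 37 mitochondrially encoded genes (0 in each NudC+ library).

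Eluted RNA was richer in mRNAs of many subunits of the respiratory chain, the ribosomes and the proteolytic core of the proteasome, and poorer in mRNAs such as Apob, Cps1 and Scd1. At an adjusted p under 0.05 and a change of at least 2-fold, 2082 genes (11.5% of those tested) were higher in eluted RNA, and 1895 genes (10.5%) were lower. The median log2 fold change was 1.63 among the higher and -1.38 among the lower genes, against -0.055 over all genes tested. At least 4-fold changes were seen for 629 higher and 229 lower genes. The higher genes took 18.1% and 18.9% of the counts of tested genes in input and 42.8% and 46.6% in eluted RNA. The lower genes took 9.57% and 8.93% in input and 2.66% and 2.31% in eluted RNA. In both pairs the change had the same sign for 2069 of the 2082 higher genes and for all 1895 lower genes. The calls were made on these same pairs, so a shared sign was largely set by the selection. Across all genes tested, called or not, the log2 ratios of the pairs had a correlation of r = 0.848. Without the replicate block, 1316 genes were higher and 1044 lower, and 1313 and 1041 of these were among the calls with it. With scaling by library size alone the median over all genes moved from -0.055 to -0.59, and 1011 genes were higher and 4490 lower. Genes above zero then made up 21.5% of those with an adjusted p under 0.05, against 48.8% with TMM.

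**Figure D1:**
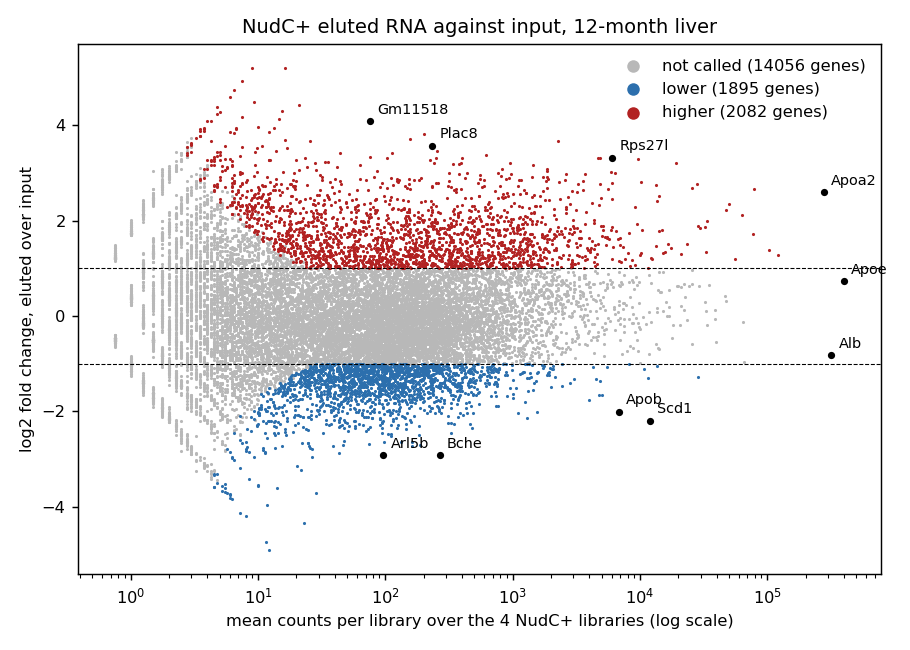
Log2 fold change of eluted RNA over input (vertical axis) against the mean counts per library on a log scale (horizontal axis) for 18033 genes, 1 point per gene, with dashed lines at 2-fold. The 2082 higher genes (red) and 1895 lower genes (blue) extend over the range of counts, and Apoa2 lies at 2.60 while Alb and Apoe lie between the lines.

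The naming rule described below required 50 or more counts on average in the group with the higher level. Among the coding genes it chose, the largest increases were seen in mRNAs of small proteins. Genes outside the rule went further, such as a histone gene at a log2 fold change of 4.18. Rps27l, a ribosomal protein-like gene, had 168 and 144 cpm in input and 1641 and 1478 cpm in eluted RNA, a log2 fold change of 3.32 ± 0.12 (SE). Cox7b, a small subunit of cytochrome c oxidase, had 119 and 123 cpm in input and 1172 and 1242 cpm in eluted RNA (3.32 ± 0.12). Uqcr10, a small subunit of complex III, went from 134 and 117 cpm to 1199 and 1294 cpm (3.31 ± 0.12). In these genes both eluted libraries lay far above both inputs, and the pairs differed little from each other. Ndufa4 went from 278 and 222 cpm to 2707 and 2212 cpm (3.30 ± 0.11). The adjusted p of these 4 genes was at most 2.04e-161 in edgeR's quasi-likelihood test, and 0.000954 in the fit without the replicate block. The size of the smaller value rests on a spread borrowed from all genes, with 7880 prior degrees of freedom. After genes under a mean of 10 counts were removed, the prior was 16.1 and the adjusted p was at most 6.14e-13.

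Plac8, a small cysteine-rich protein of immune and other cells, had 4.28 and 5.98 cpm in input and 53.6 and 67.4 cpm in eluted RNA (3.57 ± 0.19), the largest log2 fold change among the coding genes that the naming rule chose. Wfdc17, a secreted protein expressed in macrophages, went from 9.89 and 19.9 cpm to 81.4 and 236 cpm (3.37 ± 0.15). For Wfdc17 the replicates lay apart in both groups, yet each pair rose. Smim22 (3.41 ± 0.25), Slirp, a mitochondrial RNA-binding protein (3.33 ± 0.28), and Lst1, a leukocyte gene (3.32 ± 0.26), were close behind. Cox8b was also called (3.42 ± 0.42), at 1.59 and 0.38 cpm in input and 21.0 and 2.30 cpm in eluted RNA. Its adjusted p without the replicate block was 0.113, and the eluted RNA of replicate 2 lay only a little above the input of replicate 1.

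Among the 10 genes with the highest input level, only Apoa2, Apoa1 and Ttr rose at least 2-fold, and Alb, the mRNA of albumin, was below its input. Apoa2, an apolipoprotein of high-density lipoprotein, had 10310 and 11220 cpm in input and 56910 and 74760 cpm in eluted RNA (2.60 ± 0.09). Apoa1 went from 8666 and 9913 cpm to 19570 and 26090 cpm (1.28 ± 0.09), and Ttr, which carries thyroid hormone, from 7602 and 7643 cpm to 18620 and 21260 cpm (1.38 ± 0.09). Alb had 48760 and 47140 cpm in input and 31760 and 23200 cpm in eluted RNA (-0.82 ± 0.08), short of 2-fold. Apoe, with 38780 and 38600 cpm in input and 58200 and 70210 cpm in eluted RNA (0.72 ± 0.08), was also short of it. Both differed with adjusted p values of 9.92e-22 and 7.25e-18 in edgeR's quasi-likelihood test, but with 0.0903 and 0.0924 without the replicate block. Cyp2e1, with 8250 and 8378 cpm in input and 7814 and 7353 cpm in eluted RNA, had a log2 fold change of -0.13 ± 0.09 (adjusted p = 0.269 in edgeR).

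**Figure D2:**
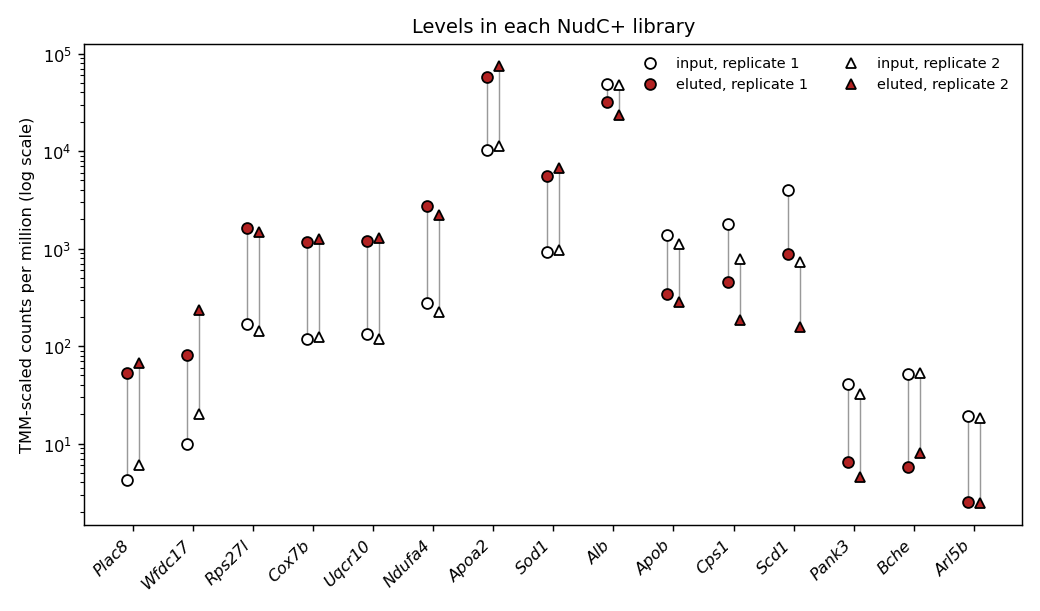
TMM-scaled cpm on a log scale in each NudC+ library for 15 named genes, with input in white, eluted RNA in red, replicate 1 as circles and replicate 2 as triangles, and a line joining each pair. Eluted RNA lies above input in both pairs from Plac8 to Sod1 and below it in both pairs from Alb to Arl5b.

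Among the coding genes that the naming rule chose, the largest decreases were seen in genes with long merged exons. Genes outside the rule went further, such as a cytochrome P450 at a log2 fold change of -4.12. Bche, which encodes the plasma enzyme butyrylcholinesterase, had 51.4 and 52.5 cpm in input and 5.76 and 8.05 cpm in eluted RNA (-2.92 ± 0.20). Arl5b, a small GTPase, went from 19.4 and 18.4 cpm to 2.51 and 2.44 cpm (-2.93 ± 0.29). Pank3, a pantothenate kinase of coenzyme A synthesis, went from 40.7 and 32.2 cpm to 6.50 and 4.60 cpm (-2.71 ± 0.22). In each of these genes the groups were well separated. C1galt1 (-2.73 ± 0.23) and Manea (-2.70 ± 0.39), which act on glycans in the Golgi, fell as well. So did Edem3 (-2.68 ± 0.32), which helps dispose of misfolded glycoproteins in the endoplasmic reticulum, and Zbtb33, a methyl-CpG binding protein (-2.72 ± 0.43). Merged exon lengths were 6741 bases for Bche, 10428 for Arl5b and 7376 for Pank3, against 816 for Rps27l, 1214 for Cox7b and 584 for Uqcr10.

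Annotated starts of some of these genes are shown because an NAD cap stands on the first transcribed base. Each line gives 41 bases of RefSeq promoter sequence (GRCm38.p6), 5′ to 3′ on the gene's strand, from 20 bases before the start to 20 after it, with the first transcribed base in capitals. The first 6 genes were higher in eluted RNA and the last 3 lower.
Cox7b (chrX:106015680-106015720, plus strand): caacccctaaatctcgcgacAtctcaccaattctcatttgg
Uqcr10 (chr11:4704324-4704364, minus strand): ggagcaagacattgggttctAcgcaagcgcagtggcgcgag
Wfdc17 (chr11:83704036-83704076, plus strand): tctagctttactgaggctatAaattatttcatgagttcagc
Ndufa4 (chr6:11907430-11907470, minus strand): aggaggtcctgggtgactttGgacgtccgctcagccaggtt
Mrps18c (chr5:100798739-100798779, plus strand): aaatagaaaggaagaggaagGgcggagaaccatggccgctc
Rps15a (chr7:118116127-118116167, minus strand): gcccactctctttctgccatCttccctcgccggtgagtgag
Bche (chr3:73708395-73708435, minus strand): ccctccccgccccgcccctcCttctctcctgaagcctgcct
Arl5b (chr2:15055300-15055340, plus strand): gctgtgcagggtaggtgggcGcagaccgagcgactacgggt
Pank3 (chr11:35769475-35769515, plus strand): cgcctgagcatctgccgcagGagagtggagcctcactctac

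The first base was A, G or C among the higher genes shown and G or C among the lower ones. Of the 13956 protein-coding genes tested, 8710 had a single RefSeq start. An A stood there in 32.2% of the higher, 24.9% of the lower and 29.2% of all such genes. By first base, 11.8% of genes with A, 9.06% with C, 10.4% with G and 11.1% with T were higher in eluted RNA. Among genes with merged exons under 1500 bases the shares were 47.9% for A, 42.6% for C, 47.1% for G and 52.5% for T. With the first base of the longest GENCODE transcript instead, A stood at the start of 28.0% of higher and 24% of lower genes. Annotated starts can differ from those used in liver, and the capped base itself was not measured.

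Merged exon length separated the higher from the lower genes throughout the coding transcriptome. The median was 1988 bases in the 1389 higher protein-coding genes, 7014 in the 1772 lower ones and 4272 in those not called. The protein-coding genes were divided by length into 10 bins of equal size. In the shortest bin (114 to 1695 bases), 571 of 1396 genes (40.9%) were higher and 8 (0.573%) lower. In the longest bin (from 9798 bases), 27 (1.93%) were higher and 430 (30.8%) lower. The median log2 fold change declined at every step, from 0.99 in the shortest bin to -0.79 in the longest. Each pair showed it alone, with medians of 0.61 and 0.64 in the shortest and -0.57 and -0.49 in the longest bin. Under 1000 bases, 202 of 360 genes were higher and 0 lower. Across protein-coding genes, which share libraries and are not independent, Spearman's rho of log2 fold change with exon length was -0.482 (n = 13956 genes). With a minimum of 50 counts on average, 8344 genes were left and rho was -0.581.

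**Figure D3:**
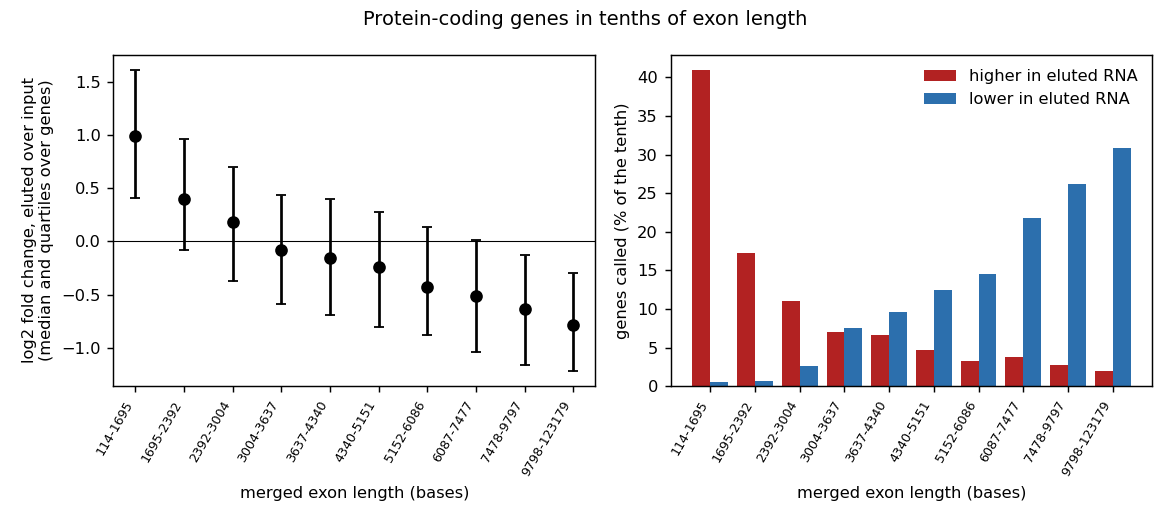
Protein-coding genes in 10 equal bins of merged exon length in bases (horizontal axes), with the median and quartiles of the log2 fold change of eluted RNA over input (left) and the percentage of genes called higher (red) and lower (blue, right). The median declines from 0.99 to -0.79, and the share of higher genes from 40.9% to 1.93%.

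Other features of the transcripts followed to a lesser extent. Higher genes had a median of 5 exons, lower genes 14 and those not called 9. GC content of the longest transcript had a median of 50.2% in higher, 44.9% in lower and 50.9% in genes not called. Input level per kb of exon had a median of 7.79 cpm per kb in higher and 2.08 cpm per kb in lower genes. Its rho with the log2 fold change was 0.134, while for input cpm without division by length it was -0.0253. Over the 8344 genes with at least 50 counts on average it was 0.318 per kb. In the NudC- arm the shortest and longest bins had median log2 fold changes of 1.15 and -0.68. They were 0.66 and -0.98 in 2-month liver, 0.54 and -0.97 in 18-month liver and 0.68 and -0.97 in the spike-in experiment.

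The respiratory chain carries electrons from NADH and succinate to oxygen, and complex I, where NADH enters, had the highest share of higher genes among the 17 gene lists. Of 38 genes listed as complex I subunits, 32 were higher (84.2%, against 11.5% of all genes tested) and 0 were lower. The median log2 fold change was 1.74. The list held Ndufa4, whose membership of the complex was not examined here. Ndufb1-ps rose most (3.68 ± 0.13), from 51.5 and 41.8 cpm to 656 and 535 cpm. It is annotated as a transcript from a bidirectional promoter although it carries the name of a complex I subunit. The 6 subunits that were not called ranged from Ndufb9 at 0.82 down to Ndufs1 at -0.91. The list was split by function after the values were seen. Of the 7 core subunits, which bind flavin and iron-sulfur clusters, 3 were higher (median 0.63), against 29 of the other 31 listed genes (median 1.97). The core subunits had a median exon length of 2178 bases, and the others of 1251 bases.

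Of 42 subunits of complexes II to V, 28 were higher and 0 lower (median 1.49). By complex, also split after the values were seen, 10 of 11 subunits of cytochrome c oxidase were higher (median 1.92). For ATP synthase this held for 11 of 17 (median 1.63), for complex III and cytochrome c for 6 of 10 (median 1.71), and for complex II for 1 of 4 (median 0.55). Atp5a1 and Atp5b, the large catalytic subunits of ATP synthase, had log2 fold changes of 0.20 and 0.15, and Sdha, the flavoprotein of complex II, of -0.59. Atp5k, another small subunit of ATP synthase, rose from 85.0 and 71.7 cpm to 403 and 440 cpm (2.42 ± 0.12). At an unadjusted p under 0.05 in edgeR 1 gene of each list was below zero, and DESeq2 called 0 lower in both. With library size alone, 20 of 38 complex I subunits and 20 of 42 of the other complexes were higher, with medians of 1.21 and 0.95.

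Ribosomal protein mRNAs were enriched to a smaller degree. Among the 79 cytosolic ribosomal protein genes, 43 were higher (54.4%), 0 were lower and the median was 1.15. Rps15a went from 42.5 and 50.6 cpm to 352 and 344 cpm (2.91 ± 0.13), and Rps29 from 3.91 and 3.51 cpm to 27.8 and 26.3 cpm (2.89 ± 0.24). The small and large ribosomal subunits did so in like shares, 18 of 32 and 25 of 47 genes. Rpl5 (-0.66), Rpl24 (-0.60) and Rpl15 (-0.28) were at the other end of the list. These mRNAs are known to begin with C followed by pyrimidines, the 5′ terminal oligopyrimidine tract. In the 50 genes with a single RefSeq start, C stood there in 18 and A in 8. C followed by at least 4 pyrimidines stood in 12 of the 50 (24%), against 2.42% of the 8710 coding genes with a single start. The 26 of these genes that were higher in eluted RNA had C in 10 and A in 6 (23.1%). With the first base of the longest GENCODE transcript instead, A stood in 2.33% and C in 30.2% of the 43 higher genes. Ribosomal protein genes have many processed pseudogenes, and reads shared with them could have been left out or placed on either copy.

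Mitochondrial ribosomal proteins, which translate the mitochondrial genome's mRNAs, resembled the cytosolic ones. Of 77 genes, 40 were higher and 0 lower (median 1.02). Mrps18c rose from 11.1 and 10.4 cpm to 95.4 and 103 cpm (3.21 ± 0.16), and Mrpl33 from 13.8 and 14.5 cpm to 105 and 104 cpm (2.89 ± 0.15). The inputs and the eluted libraries of both genes agreed closely within their groups. Below zero at an unadjusted p under 0.05 in edgeR were 0 cytosolic and 3 mitochondrial genes, and DESeq2 called 0 lower in both lists. With library size alone, 21 cytosolic and 19 mitochondrial ribosomal protein genes were higher and 1 and 2 were lower, with medians of 0.61 and 0.47.

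Sm and LSm proteins form rings on spliceosomal RNAs and on mRNAs that are to be degraded. Their list also held Snrpa, Snrpa1, Snrpb2, Snrpc and Snrnp70, spliceosomal proteins outside the rings. Of 21 genes, 16 were higher and 0 lower (median 1.71). Snrpb2 rose from 11.4 and 15.8 cpm to 81.1 and 89.3 cpm (2.67 ± 0.16), and Snrpd3, an Sm ring protein, from 39.7 and 32.2 cpm to 202 and 195 cpm (2.47 ± 0.13). Among 36 proteasome subunits, 16 were higher and 0 lower (median 0.87). Sem1, a very small subunit of the regulatory particle, rose from 55.6 and 57.7 cpm to 442 and 490 cpm (3.04 ± 0.12), and Psmb2 from 71.1 and 50.1 cpm to 291 and 220 cpm (2.08 ± 0.12). Split after the values were seen, 15 of 17 subunits of the proteolytic core particle were higher (median 1.45). Of the 19 subunits of the regulatory particle, which unfolds substrates, Sem1 alone was (median 0.36). Median exon lengths were 2370 and 3057 bases. At an unadjusted p under 0.05 in edgeR 4 proteasome genes and 0 of the Sm and LSm list were below zero, and DESeq2 called 0 lower in either list.

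RNA polymerase II and the Mediator complex moved in both directions. Of their 42 subunits, 14 (33.3%) were higher and 6 (14.3%) lower (median 0.56), against 11.5% and 10.5% of all genes tested. Polr2k, a small polymerase subunit, went from 0.73 and 1.14 cpm to 10.5 and 7.76 cpm (3.23 ± 0.39), and Med21 from 12.1 and 9.49 cpm to 91.1 and 64.3 cpm (2.83 ± 0.16). Other Mediator subunits went the other way, with Med23 from 6.47 and 9.30 cpm to 1.77 and 2.59 cpm (-1.85 ± 0.36) and Med13 from 17.3 and 13.2 cpm to 4.14 and 5.32 cpm (-1.68 ± 0.27). Polr2b, the second-largest polymerase subunit, also fell (-1.44). With library size alone the list stood at 10 higher and 10 lower (median 0.02).

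**Figure D4:**
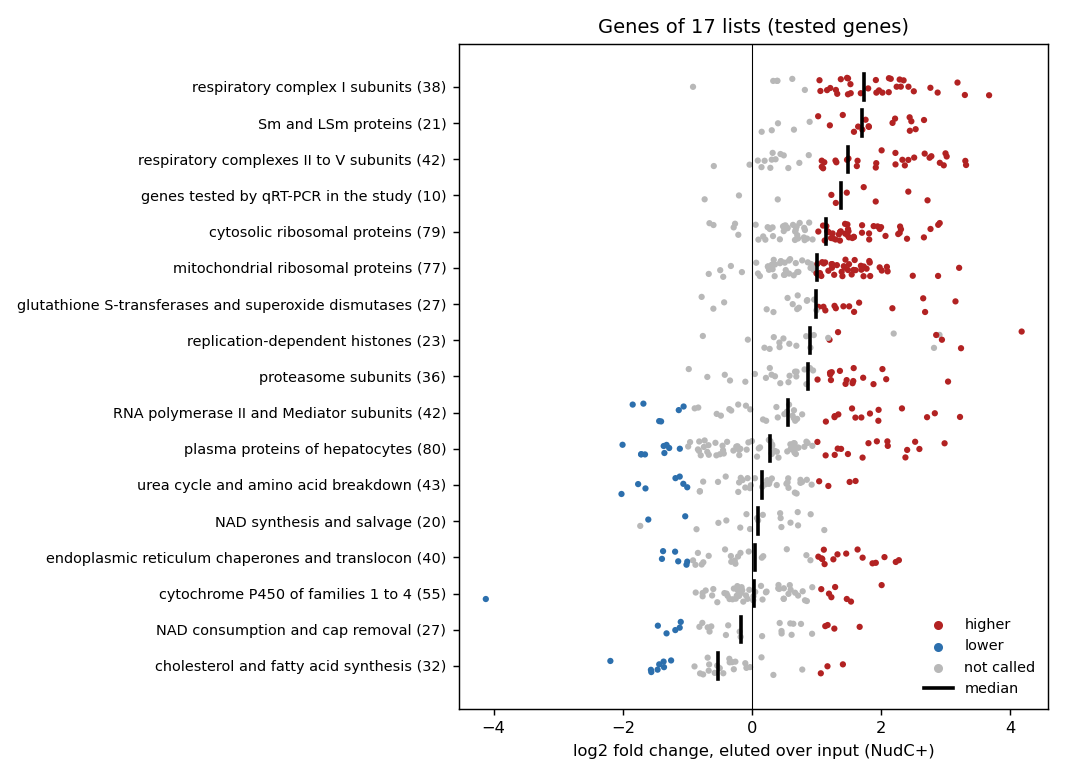
Log2 fold change of eluted RNA over input for every tested gene of 17 lists (number tested in parentheses), 1 point per gene in red where higher, blue where lower and grey where not called, with the list median as a black bar. Complex I lies furthest to the right with a median of 1.74, and cholesterol and fatty acid synthesis furthest to the left with -0.52.

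Plasma proteins made by hepatocytes were split by gene. Of 80 genes, 16 (20%) were higher and 9 (11.2%) lower, against 11.5% and 10.5% of all genes tested, with a median of 0.27. With library size alone 10 were higher and 24 lower (median -0.27), and without the NudC+ Enrich library of replicate 1 the lower genes numbered 14. Orm2, an acute-phase glycoprotein, went from 47.6 and 15.3 cpm to 355 and 130 cpm (2.99 ± 0.13), a gene whose replicates differed about as much in input as in eluted RNA. Its adjusted p was 0.0523 without the replicate block. Apob, the very long mRNA of the structural protein of very-low-density lipoprotein, had 1378 and 1117 cpm in input and 341 and 281 cpm in eluted RNA (-2.00 ± 0.11). Pros1, the anticoagulant protein S, went from 41.8 and 28.5 cpm to 13 and 8.34 cpm (-1.72 ± 0.20).

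Detoxifying enzymes of the glutathione and superoxide pathways were frequent among the higher genes. Of 27 glutathione S-transferases and superoxide dismutases, 13 were higher and 0 lower (median 1.00). Sod1, the cytosolic superoxide dismutase, rose from 918 and 975 cpm to 5506 and 6730 cpm (2.68 ± 0.10). Mgst3, a microsomal glutathione transferase, rose from 26.0 and 56.6 cpm to 247 and 472 cpm (3.15 ± 0.13). Of 55 cytochromes P450, 7 were higher (12.7%, near the 11.5% of all genes) and 1 lower, with a median of 0.03 (-0.52 with library size alone). Cyp3a11, a main drug-metabolising P450 of liver, rose from 1009 and 874 cpm to 3218 and 2106 cpm (1.47 ± 0.10), and Cyp2c68 from 97.4 and 125 cpm to 263 and 278 cpm (1.29 ± 0.12). Members of these families have close paralogs whose reads counting may have split.

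Genes that make, use or remove NAD were not enriched as groups. Of 20 genes of NAD synthesis and salvage, 0 were higher and 2 were lower (median 0.09, -0.45 with library size alone). Nampt, the rate-limiting enzyme of NAD salvage, went from 33.1 and 37.5 cpm to 16.8 and 17.7 cpm (-1.03 ± 0.18), and Nadk2, the mitochondrial NAD kinase, from 112 and 77.7 cpm to 36.6 and 25.6 cpm (-1.61 ± 0.14). In 2-month, 18-month and spike-in libraries Nampt lay above zero (0.58, 0.88 and 0.35), and Nadk2 below it (-0.95, -0.90 and -0.99). In edgeR 7 genes of this list were above and 5 below zero at an unadjusted p under 0.05, and DESeq2 with the block called 0 higher and 1 lower. Of 27 genes of NAD consumption and cap removal, 4 (14.8%) were higher and 5 (18.5%) lower (median -0.17). The shares over all genes tested were 11.5% and 10.5%. With library size alone 1 was higher and 10 were lower (median -0.72), and the test against a 2-fold change called 0 lower. Nnmt, which methylates nicotinamide, rose from 214 and 78.3 cpm to 655 and 260 cpm (1.67 ± 0.12; adjusted p = 0.153 without the replicate block). Sirt7 rose from 86.0 and 89.4 cpm to 200 and 226 cpm (1.28 ± 0.12). Dcp2, the decapping enzyme, went from 7.33 and 6.36 cpm to 2.66 and 2.30 cpm (-1.46 ± 0.36), and its partner Dcp1a from 8.79 and 9.39 cpm to 3.69 and 3.59 cpm (-1.32 ± 0.33).

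Genes of amino acid breakdown were called in both directions. In the urea cycle and amino acid breakdown, 4 of 43 genes (9.3%) were higher and 7 (16.3%) lower, against 11.5% and 10.5% of all genes. The median was 0.16, and -0.38 with library size alone. DESeq2 with the block called 5 and 5, and the fit without the block 3 and 2. Without the NudC+ Enrich library of replicate 2, 5 were higher and 4 lower, so that which direction held more genes depended on the fit. Cps1, the entry enzyme of the urea cycle, went from 1779 and 780 cpm to 455 and 184 cpm (-2.02 ± 0.11), and its adjusted p without the replicate block was 0.0622. Glud1, glutamate dehydrogenase, went from 875 and 554 cpm to 260 and 162 cpm (-1.76 ± 0.11). Gnmt, a methyltransferase of glycine, rose from 1991 and 1325 cpm to 5206 and 4148 cpm (1.51 ± 0.10), and Prodh2 from 387 and 372 cpm to 1155 cpm in both (1.61 ± 0.11).

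In cholesterol and fatty acid synthesis 3 of 32 genes were higher and 8 lower (25%, against 10.5% of all genes; median -0.52). Scd1, the desaturase of stearate, went from 4017 and 726 cpm to 882 and 158 cpm (-2.19 ± 0.11). Its inputs differed more between replicates than input and eluted RNA did within a pair, and the adjusted p without the replicate block was 0.253. Insig1, a sterol sensor partner, went from 280 and 184 cpm to 88.8 and 66.3 cpm (-1.56 ± 0.12). Of 40 chaperones and translocon proteins of the endoplasmic reticulum, 15 (37.5%) were higher and 6 (15%) lower, against 11.5% and 10.5% of all genes. Their median was 0.05, and -0.49 with library size alone. Ostc rose from 46.9 and 17.1 cpm to 237 and 79.1 cpm (2.28 ± 0.13). Tram1 went from 172 and 80.4 cpm to 69.3 and 28.2 cpm (-1.39 ± 0.13; adjusted p = 0.148 without the block).

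Replication-dependent histone mRNAs end in a stem-loop and lack a poly(A) tail, while the libraries were made with an mRNA kit. Of 63 such genes 18 had no count in the 4 libraries and 23 were tested, of which 6 were higher and 0 lower (median 0.91). Hist1h2bc, the only one with a mean of at least 50 counts in eluted RNA among those called, went from 145 and 84.0 cpm to 330 and 236 cpm (1.33 ± 0.12). In edgeR 0 histone genes were below zero at an unadjusted p under 0.05. DESeq2 with the block called 4 higher and 0 lower. The count of higher genes was 2 without the replicate block, at a mean of at least 10 counts, without the NudC+ Input library of replicate 2 and with library size alone. Because most histone genes passed the filter on few counts, the median describes the detected ones.

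A set of genes measured by qRT-PCR had been chosen from ONE-seq data, so their direction is not independent evidence. Of these 10 genes, 7 were higher and 0 lower (median 1.39). Fam213b rose from 24.9 and 19.0 cpm to 146 and 141 cpm (2.72 ± 0.14), Ufc1 from 87.9 and 62.1 cpm to 309 and 253 cpm (1.92 ± 0.12), and Akr1c13 from 73.4 and 52.5 cpm to 280 and 151 cpm (1.73 ± 0.12). Gstm1 (1.30 ± 0.10), Cyp2c70 (1.23 ± 0.11), Cyp3a11 and Atp5k were the other 4, of which Cyp2c70 had an adjusted p of 0.301 without the block. Med17 was not called, with 8.43 and 11.3 cpm in input and 14.6 and 11.6 cpm in eluted RNA (0.40 ± 0.23). Fgb (-0.20 ± 0.10) and Serpina1e (-0.73 ± 0.11) were not called either. The paper had measured both as genes that ONE-seq did not identify, and found no enrichment of them on boronic acid beads. In that assay, on RNA of 2-month livers, it reported enrichment of Med17, which was not called here. The same held for Akr1c13, Atp5k and Prxl2b (listed here as Fam213b), which were called higher. Serpina1e had 2438 and 111 cpm in the 2 inputs, and 1460 and 67.3 cpm in eluted RNA. The 19 Mup genes, major urinary proteins, set the replicates apart in the same way, with 110028 and 24663 summed counts in input, and 8 of them were higher (median 0.93).

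Beyond protein-coding genes, pseudogenes and long non-coding RNAs were often higher and seldom lower. Of 1554 pseudogenes, 370 were higher (23.8%) and 36 lower (2.32%), with a median of 0.67. For 94 pseudogenes named after a ribosomal protein the counts were 28 and 1. Gm11518, a processed pseudogene on chromosome 11, rose from 0.86 and 1.42 cpm to 22.2 and 18.5 cpm (4.09 ± 0.31), and Gm14706 on chromosome X from 3.91 and 3.61 cpm to 52.1 and 53.9 cpm (3.82 ± 0.20). Processed pseudogenes are copies of mRNAs, so these reads cannot be told apart with certainty from those of a parent gene. Gm29216, an unprocessed pseudogene on chromosome 1, went from 7.33 and 4.65 cpm to 0.74 and 0.14 cpm (-3.72 ± 0.56). Of 1727 long non-coding RNAs, 269 were higher (15.6%) and 55 lower (3.18%). Among them 88 of 714 antisense transcripts were higher. The counting options that the methods name include none for strand, so antisense and sense reads cannot be told apart.

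Calls of markers of other liver and blood cells are counted below, beside 11.5% higher and 10.5% lower among all genes tested. Of 6 erythroid markers tested, 3 were higher, the globins Hbb-bt, Hbb-bs and Hba-a1, and 0 lower. These 3 calls were lost without the replicate block, where 0 were higher. The summed erythroid level was 353 and 90.7 cpm in input and 801 and 186 cpm in eluted RNA. Of 10 stellate cell markers 0 were higher and 3 lower, at a summed 310 and 400 cpm in input and 328 and 380 cpm in eluted RNA. Of 7 cholangiocyte markers 1 was higher, with sums of 51.2 and 62.9 cpm against 90.4 and 160 cpm and Cftr at 0 in all 4 libraries. Kupffer cell markers stood at 1 higher and 1 lower of 10, lymphocyte markers at 1 and 0 of 10, and neutrophil markers at 0 and 0 of 7. Sinusoidal endothelial markers stood at 0 and 0 of 10, with 6 below zero at an unadjusted p under 0.05 in edgeR and 0 calls by DESeq2. The part of these cells in the results was not tested. Between replicates, where the summed levels differed, fewer cells of a type cannot be told apart from less RNA per cell.

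Other NudC-eluted libraries of the series, from separate inputs, gave the same direction for most of the called genes. Of the 2082 higher genes 1990 were tested in 2-month liver, where 899 (45.2%) were called higher and 10 lower, against 13.1% higher among all genes tested there. In 18-month liver 735 (36.9%) were higher and 22 lower, against 11.5%. In the spike-in experiment 800 of 1958 (40.9%) were higher and 5 lower, against 10.7%. These genes made up 43.9%, 40.8% and 50.6% of all higher calls of the 3 experiments. Of the 1895 lower genes, 935 of 1855 (50.4%, against 14.4%) were lower in 2-month liver, 907 of 1855 (48.9%, against 14.7%) in 18-month liver and 905 of 1848 (49.0%, against 14.7%) in the spike-in experiment. They made up 41.4%, 39.6% and 41.4% of the lower calls there, and 5, 4 and 1 of them were called higher. Among 1923 higher genes tested in all 3, 580 (30.2%) were called higher in each of them and 906 (47.1%) in none.

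Several lists stood at different levels in those libraries, as values side by side from tables that were normalized separately, with the difference not tested. Cytosolic ribosomal proteins, with 43 of 79 higher and a median of 1.15 here, had 4 higher and a median of 0.11 in 2-month liver, 1 and -0.10 in 18-month liver and 1 and 0.23 in the spike-in experiment. Complex I subunits, with 32 of 38 higher here, had 17, 11 and 13 higher, and medians of 0.80, 0.53 and 0.65. Glutathione S-transferases and superoxide dismutases were at about the same level in all, with medians of 1.00 here and 1.01, 0.91 and 0.96 there. Urea cycle and amino acid breakdown had 4 of 43 higher here and 15, 16 and 14 there. Cytochromes P450 had 7 of 55 higher here and 18 of 54 in 2-month liver. Ttr had a log2 fold change of 1.38 here and of 0.18, 0.03 and 0.27 there, and Cyp3a11 of 1.47 here and of 3.09, 2.82 and 2.29 there. Med17, not called here, stood at 2.50, 2.35 and 1.90. Pros1, lower here at -1.72, stood at 0.30, 0.47 and -0.13. The age of the mice and the experiment differed together between these sets and the 12-month libraries, so they cannot be told apart.

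**Figure D5:**
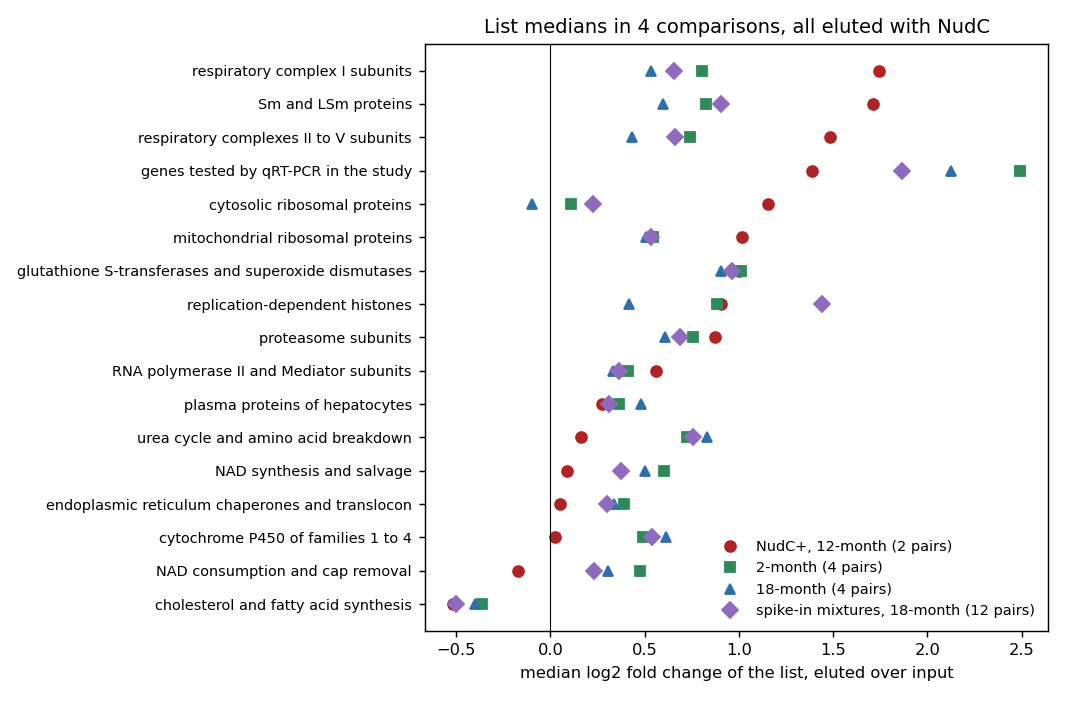
Median log2 fold change of eluted RNA over input (horizontal axis) of each gene list in the NudC+ libraries (red circles), 2-month liver (green squares), 18-month liver (blue triangles) and the spike-in experiment (purple diamonds). Cytosolic ribosomal proteins lie at 1.15 in NudC+ and between -0.10 and 0.23 in the other sets, and glutathione S-transferases and superoxide dismutases lie between 0.91 and 1.01 in all 4.

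Most genes that were higher with NudC were also higher in the arm without it. There 2360 genes (13.1% of those tested) were higher, and the 1748 genes higher in both arms were 84.0% of the NudC+ and 74.1% of the NudC- calls. Differences between replicates 1 and 2 correlated between the inputs of both arms (r = 0.783 across genes), so the arms may not be independent. The difference of the log2 fold changes, tested as an interaction in edgeR's quasi-likelihood model, passed an adjusted p under 0.05 for 20 genes that were higher in NudC+ (0.111%) and 127 that were lower (0.704%). Of the 127, 100 were still called higher in NudC+, and 97 were protein-coding. The count was 0 both without the replicate block and after genes under a mean of 10 counts were removed, where 252 and 1241 genes had an unadjusted p under 0.05. It was 136 by DESeq2 with the block, and 14 without the NudC+ Input library of replicate 1. The 3 named genes with the lowest difference, Gm10801, Gm10800 and Gm21738, and the 3 with the highest, Cnnm4, Rapgef3 and Fbxl19, are given among the results for a closer look.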

How the data were processed

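RNA from 12-month C57BL/6 livers was sequenced as NudC-eluted and input libraries. The deposited values are whole numbers with unequal library totals, read here as unnormalized counts. Per the study's methods, the authors obtained read pairs per gene with Trim Galore, STAR (GRCm38) and featureCounts (Gencode M23). Gene types, lengths and positions were taken from GENCODE M21 (same build), which held 55154 of the 55335 identifiers. Promoters came from RefSeq (GRCm38.p6), and 9464 tested genes matched with a single start. 4 count columns that matched no labelled library were not used, so the comparison may rest on part of its replicates.

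edgeR 4.0.16 (R 4.3.3) was fitted to all 8 NudC libraries with TMM scaling, a term per group and a replicate block, leaving 3 residual degrees of freedom. glmQLFTest p-values were two-sided and adjusted by Benjamini-Hochberg over 18033 genes. A call needed an adjusted p under 0.05 and a 2-fold change. SE is the log2 fold change over the root of F. DESeq2 1.42.0 was an alternative. The 2-month, 18-month and spike-in tables were fitted alike, with the block within each group. Input and eluted RNA with the same number were paired because the methods take input as an aliquot before capture, and their deviations correlated across genes (r = 0.715 in NudC+, 0.658 in NudC-). The deviations also correlated across arms, between inputs (r = 0.783) and between eluted libraries (r = 0.703), so they do not single out these pairs. Alternatives were other scalings, filters, blocks, DESeq2, single libraries left out and, chosen after seeing the data, a robust spread and the GENCODE first base. Nothing says that replicates came from separate mice, so p-values measure the spread between libraries, not between mice. The main fit had 7880 prior against 3 residual degrees of freedom. Each SE and p-value therefore rests almost wholly on a spread pooled over all genes, not on the gene's own. On simulated data for the NudC+ comparison (17371 genes, 200 changed 4-fold), the model recovered 199 and called 4 unchanged genes. At 2-fold (17352 genes) it recovered 88, where a call also needed an estimated change of at least 2-fold, the simulated size itself.

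Named genes were, with a mean of at least 50 counts in the higher group, the 10 coding and 4 other called genes with the largest change in the same direction in both pairs, 2 called genes per list and direction (or, without a call, the 2 with the highest input), the 10 highest inputs, the qRT-PCR genes, and 3 genes per direction of the arm difference. Others were named after their values were seen. Members and lists were chosen with earlier results of these data known. Python 3.11.15, pandas 2.3.3, scipy 1.17.1 and matplotlib 3.10.9 were used.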

Additional observations from a re-analysis of the deposited data

Results flagged for a closer look

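6 genes were flagged because their log2 fold change of eluted RNA over input differed between NudC+ and NudC- in the interaction test of edgeR's quasi-likelihood model. Gm10801, Gm10800 and Gm21738 rose less with NudC than without it, by differences of -3.84 ± 0.57, -3.72 ± 0.23 and -3.66 ± 0.66 (SE; adjusted p = 2.79e-08, 1.11e-53 and 3.11e-05). Gm10800 had 40.4 and 4.46 cpm in NudC+ input and 111 and 167 cpm in NudC+ eluted RNA. In the other arm it had 2.72 and 4.59 cpm in input and 252 and 392 cpm in eluted RNA. Without the NudC+ Input library of replicate 1 its difference was -1.21 with an adjusted p of 0.12, and that of Gm10801 was -0.61 with an adjusted p of 1.0. With a robust spread, chosen after seeing the data, the adjusted p of Gm10801 was 0.771. With DESeq2 and the block, the adjusted p of Gm10800 was 0.181.

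Cnnm4, a protein of magnesium transport, Rapgef3, a cAMP-activated exchange factor, and Fbxl19 had differences of 2.27 ± 0.61, 1.90 ± 0.52 and 1.76 ± 0.41 (adjusted p = 0.031, 0.039 and 0.00567). Fbxl19 had 6.35 and 8.26 cpm in NudC+ input and 8.57 and 13.2 cpm in NudC+ eluted RNA, against 9.11 and 8.88 cpm and 3.33 and 4.61 cpm without NudC. In the fit without the replicate block the adjusted p was 1.0 for all 6 genes. After genes under a mean of 10 counts were removed it lay between 0.0805 and 0.21. With 2 libraries per group no group was large enough for a test of single outlying libraries.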

How the results depend on the processing

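Without the replicate block, 1316 genes were higher and 1044 lower in NudC+. DESeq2 without the block on the 4 NudC+ libraries called 1371 and 700, and the test against a 2-fold change 1069 and 548. Scaling by library size alone gave 1011 and 4490, and by its construction kept the input and eluted libraries at their own totals. Leaving out 1 library at a time gave 1717 to 1944 higher and 1617 to 1968 lower genes. DESeq2 with the block called 2034 and 1407, and every other alternative stayed within 1.5 times of 2082 and 1895. A robust spread, added after seeing the data, gave 2077 and 1896.

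The 147 genes differing between arms became 45 with library size alone, 0 at a mean of at least 10 counts, 90 with no filter beyond 1 count, 0 without the replicate block, 78 with the block within each arm, and 59 with the zero filter over all 8 libraries. Leaving out 1 library gave 14 to 126. The cause of these shifts was not tested. Counts of higher genes in 2-month, 18-month and spike-in libraries stayed within 1.5 times without the block.

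Among the lists, the fit without the block called 9 instead of 15 higher and 3 instead of 6 lower genes of the endoplasmic reticulum, 4 instead of 7 higher cytochromes P450, 2 instead of 6 higher histones, 2 instead of 7 lower genes of the urea cycle and amino acid breakdown and 5 instead of 8 lower genes of lipid synthesis. Lists at 0 gained 1 call with a library left out: complex I (lower, without NudC+ Enrich replicate 1), the proteasome (lower, without NudC+ Input replicate 1) and NAD synthesis (higher, without NudC+ Enrich or Input replicate 2). Of 91 named genes, 19 lost significance without the block, and 2 reversed with library size alone, Ahsg (-0.24, from 0.31) and Hp (-0.13, from 0.41). The correlation of enrichment with input level was 0.134 per kb and -0.0253 as cpm, and 0.318 per kb over coding genes with at least 50 counts on average. With 2 replicates per group and a call that also needed an estimate of at least 2-fold, changes near 2-fold were often not called.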
